A study of Mus musculus with 29 samples.

Results

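The nuclear genes of the mitochondrial respiratory chain and ATP synthase were examined in bone marrow and spleen of mice with the MLL-ENL-ERtm allele and wild-type controls. The members were the genes with symbols starting Nduf, Uqcr, Cox4i, Cox5, Cox6, Cox7, Cox8 or Atp5, the genes Sdha to Sdhd, and Cycs and Cyc1, without pseudogenes and Rik names. The rule used symbols and no measured value, and it found 86 of the 12394 genes measured, on 160 of 22690 probe sets. Grouped by symbol, they comprised 6 core subunits, 28 accessory subunits and 5 assembly factors of complex I, 4 genes of complex II, 9 of complex III, cytochrome c (Cycs), 16 of complex IV and 17 of ATP synthase. Every Nduf gene that is neither core nor an assembly factor, Ndufa4 included, was counted as accessory by its symbol alone.

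The MLL-ENL fusion is found in acute leukaemia; joined to ERtm, a tamoxifen-responsive form of the oestrogen receptor's ligand domain, it depends on tamoxifen for its activity. All mice, wild-type controls included, received tamoxifen in the chow (300 mg/kg), so an effect of the drug itself is shared by all groups. The marrow arrays were 4 of MLL-ENL-ERtm mice labelled proliferation (7 months of tamoxifen), 4 labelled transition (7 to 8 months), 3 labelled senescence (8 months) and 4 of wild-type mice (7 or 8 months). The spleen arrays were 3 labelled early (7 months), 3 labelled progression (9 or 10 months), 3 labelled terminal (19, 21 and 23 months) and 5 of wild-type mice (8, 9, 11, 11 and 24 months). Whole organs hold many cell types, so fewer cells of a type and less RNA per cell cannot be told apart in any difference given here.

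Complex I (NADH dehydrogenase) and complex II (succinate dehydrogenase) pass electrons to ubiquinone, complex III passes them to cytochrome c, and complex IV (cytochrome c oxidase) passes them to oxygen. Complexes I, III and IV pump protons, and ATP synthase uses the proton gradient to make ATP. Some complex IV subunits have tissue isoforms, among them a set found in heart and skeletal muscle (Cox6a2, Cox7a1 and Cox8b). The transcription factors NRF1 and NRF2 (an ETS family factor also called GABP) are known activators of many of these genes.

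Promoter sequence was taken from RefSeq (assembly GRCm38.p6), which gave a window of 250 bases before to 50 after the start for 71 of the 86 members, in 76 windows. An NRF1 core (CGCATGCG, either strand) lay in 14.5% of these windows and in 1.87% of the windows of all genes. An ETS core (CCGGAAG, either strand) lay in 23.7% of them and in 8.86% of all. CCAAT lay in 39.5% of the member windows against 37.4% of all, and TATAAA in 10.5% against 13.6%. These are matches of letters, not shown binding sites, and of the 25 matched members higher in terminal spleen 5 had the NRF1 core and 7 the ETS core. The 250 bases before the start are shown for a pair of complex I genes that were higher in terminal spleen and carry a core, and for Cox7a2l, which was lower in every spleen stage and has neither core in its window. Uqcrh, the other member lower in terminal spleen, had the ETS core, and Ndufb3, higher in every stage, had neither. The sequences run 5′ to 3′ on the gene's strand, and capitals mark the NRF1 core of Ndufa8 (chr2:36049339-36049588, minus strand) and the ETS core of Ndufb7 (chr8:83566508-83566757, plus strand). Cox7a2l lies on the minus strand (chr17:83514334-83514583).
Ndufa8: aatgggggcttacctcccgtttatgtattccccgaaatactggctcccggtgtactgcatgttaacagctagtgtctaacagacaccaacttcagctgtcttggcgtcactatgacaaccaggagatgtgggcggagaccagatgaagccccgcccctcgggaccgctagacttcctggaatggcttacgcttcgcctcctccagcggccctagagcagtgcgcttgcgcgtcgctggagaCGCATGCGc
Ndufb7: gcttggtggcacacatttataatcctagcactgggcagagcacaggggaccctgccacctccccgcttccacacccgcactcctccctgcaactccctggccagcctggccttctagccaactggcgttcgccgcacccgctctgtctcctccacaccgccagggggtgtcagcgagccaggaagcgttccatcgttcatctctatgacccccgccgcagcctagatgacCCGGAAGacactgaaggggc
Cox7a2l: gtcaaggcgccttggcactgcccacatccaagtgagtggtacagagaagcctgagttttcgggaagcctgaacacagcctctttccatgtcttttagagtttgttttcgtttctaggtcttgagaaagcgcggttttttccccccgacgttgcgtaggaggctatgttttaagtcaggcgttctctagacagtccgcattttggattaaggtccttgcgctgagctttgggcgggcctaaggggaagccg

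Levels are log2 array values, on which a difference of 1 is a doubling, and they were compared within a tissue because the array medians over genes differed between marrow (8.67 to 8.97) and spleen (7.23 to 7.44). Marrow arrays correlated with each other at 0.957 to 0.995 and spleen arrays at 0.932 to 0.996. Several arrays carried signal of another tissue or stood apart. The mean of 16 skeletal muscle markers, set against wild type, was 3.94 in proliferation marrow 1 and between -0.13 and 0.22 in every other marrow array. The mean of 10 pancreas markers, set against all wild types, was 4.98 in wild-type spleen 3, 0.90 in early spleen 1 and 0.41 in wild-type spleen 5, against -1.97 to -1.50 in the other 11 spleens. Xist, an RNA of female cells, was above a log2 level of 10 in all 3 terminal spleens, 1 of 3 early, 0 of 3 progression and 2 of 5 wild-type spleens. In marrow all 8 proliferation and transition arrays were above that level, as were 1 of the 3 senescence arrays and 2 of the 4 controls. A member passed the test where limma's adjusted p, taken over all genes, was under 0.05, and each difference is given ± its standard error. Counts from fits that left arrays out are given without the share of all genes unless stated. That share moves with the arrays too, so such counts do not compare members with all genes.

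Taken over the 86 genes, spleen arrays of later stages lay higher and marrow arrays showed no such order. The median over members of the distance from the wild-type mean ran from -0.03 to 0.06 in the 5 wild-type spleens, 0.00 to 0.09 in early, 0.12 to 0.18 in progression and 0.11 to 0.28 in terminal spleen. All progression and terminal arrays thus lay above all wild-type spleens, while the early spleens overlapped the wild type and lay below both later stages. In marrow the wild-type arrays alone spanned -0.32 to 0.22, and the proliferation (-0.11 to 0.09), transition (-0.10 to 0.30) and senescence (-0.10 to 0.15) arrays overlapped them.

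**Figure D1:**
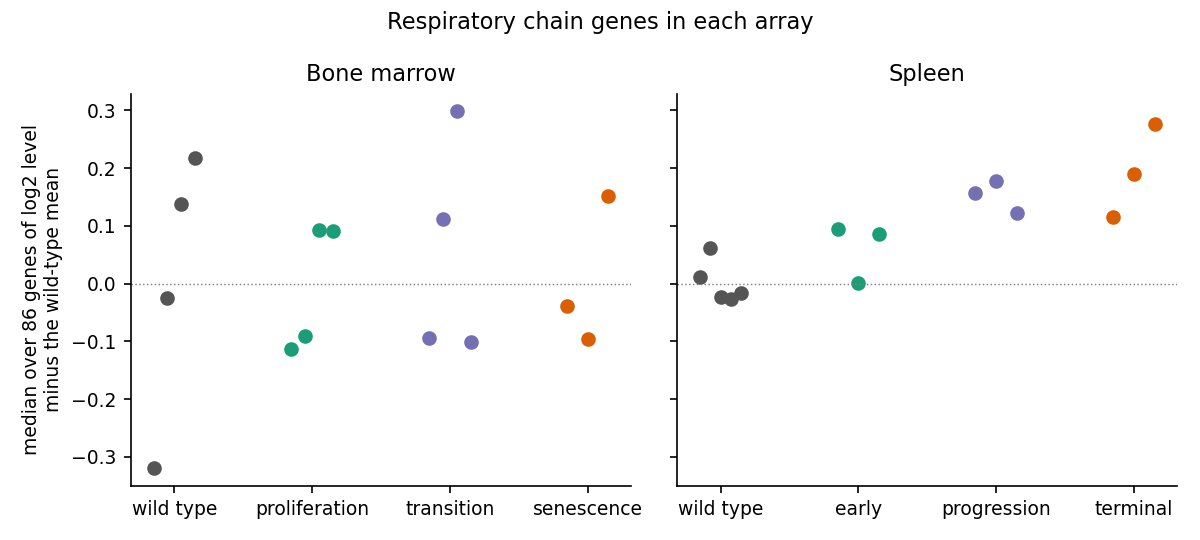
Each point is an array, and the vertical axis gives the median over the 86 genes of the log2 level minus the wild-type mean of the tissue. The marrow groups overlap throughout, whereas the 3 progression and 3 terminal spleens (0.11 to 0.28) lie above the 5 wild-type spleens (-0.03 to 0.06).

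In terminal spleen 27 of the 86 members were higher than in wild-type spleen (31.4%) and 2 were lower (2.33%). Over all genes tested 18.1% were higher and 16.3% lower, so the share of members called in either direction lay near the 34.5% of all genes, and their split between directions was the part that differed from it. The median difference of the members was 0.20, against 0.04 for all genes. With the test limited to genes above the median level, which include 79 members, 31 members (39.2%) were higher and 2 (2.53%) lower, against 28.9% and 22.0% of those genes. The rises were small: the largest, of the complex I accessory subunit Ndufb1, was 1.89-fold. With the 3 spleen arrays of pancreas signal left out, which leaves 3 wild types, 16 members were higher and 2 lower, and of all 12394 genes 1472 were higher and 1454 lower. In 39 members every terminal array lay above every wild-type array (21.4% of all genes), and in 4 every terminal array lay below (18.2% of all genes).

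Accessory subunits of complex I made up 12 of the 27 members that were higher. Of its 28 accessory subunits 12 were higher, of its 5 assembly factors 2, and of its 6 core subunits, which include the carriers of its flavin and iron-sulphur centres, 0. The core subunits had a median difference of 0.13, and Ndufv1, which holds the NADH site, differed by 0.26 ± 0.10 (limma, adjusted p = 0.054). The accessory subunits had a median difference of 0.27. Among them Ndufb1 was higher by 0.92 ± 0.15 (limma, adjusted p = 0.00027), Ndufb7 by 0.76 ± 0.10 (4.0e-05), Ndufv3 by 0.76 ± 0.13 (0.00040), Ndufa8 by 0.70 ± 0.10 (0.00014) and Ndufb3 by 0.62 ± 0.10 (0.00022). Ndufaf7, a methyltransferase that acts on a core subunit during assembly, was higher by 0.84 ± 0.14 (limma, adjusted p = 0.00033).

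**Figure D2:**
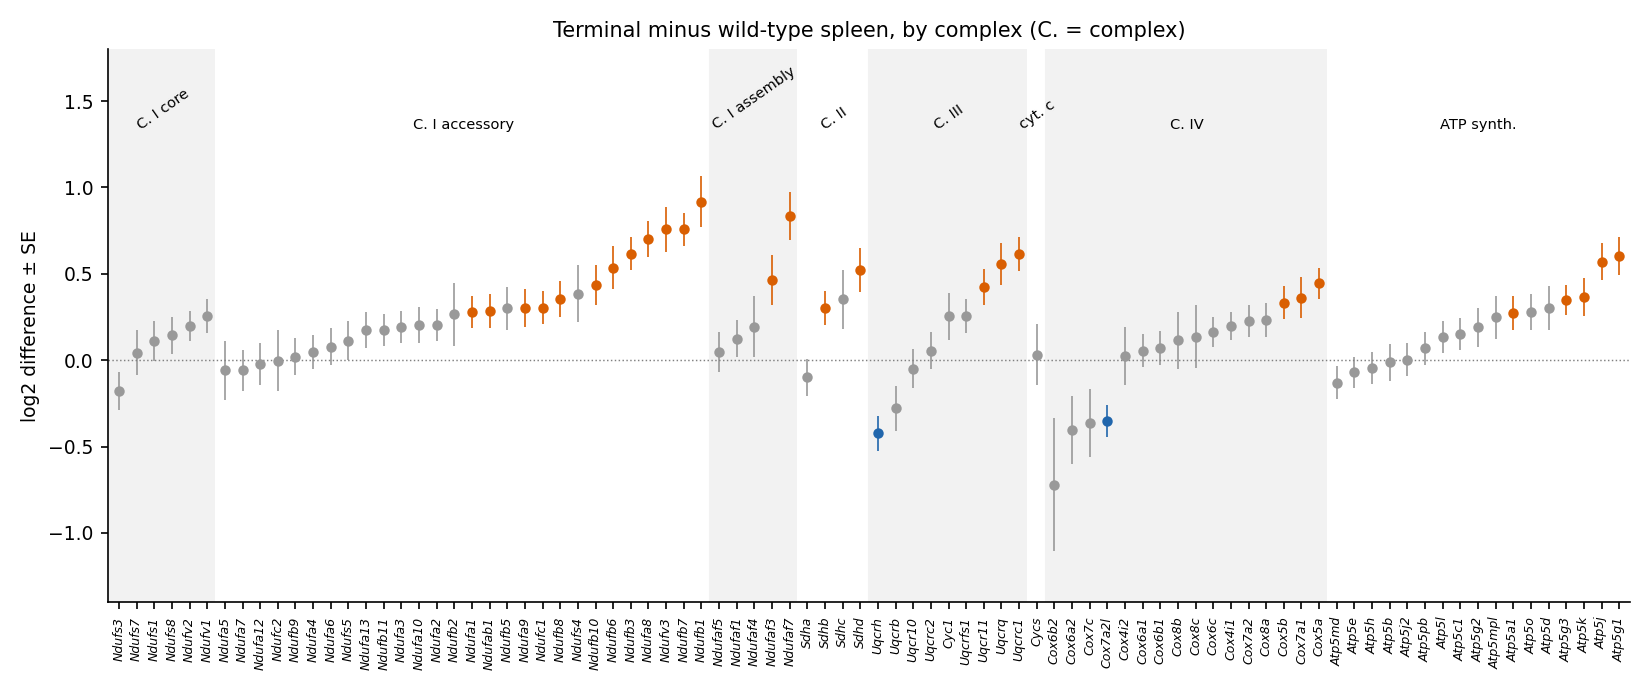
Each point is 1 of the 86 genes in terminal minus wild-type spleen (3 against 5 arrays), with its standard error, grouped by complex. Orange points passed the test as higher (27), blue ones as lower (2: Uqcrh and Cox7a2l) and grey ones did not pass.

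The values by array show the size of these differences against the spread. Ndufb7, an accessory subunit on the intermembrane side, stood at 12.38, 12.47 and 12.49 in terminal spleen, at 12.21, 12.12 and 11.97 in early, at 11.97, 12.21 and 12.21 in progression and at 11.78, 11.73, 11.67, 11.65 and 11.60 in wild-type spleen. All 9 MLL-ENL-ERtm spleens lay above all 5 wild types, and the terminal arrays lay above the rest. Ndufb3, a subunit of the membrane arm, stood at 11.00, 10.99 and 11.04 in terminal, 10.77, 10.69 and 10.87 in early, 10.82, 11.15 and 10.89 in progression and 10.46, 10.44, 10.31, 10.37 and 10.38 in wild-type spleen. Again no MLL-ENL-ERtm spleen overlapped the wild type, but terminal and progression spleens overlapped each other. Ndufb1 stood at 8.44, 8.87 and 8.82 in terminal, 8.04, 8.00 and 8.60 in early, 8.54, 8.31 and 8.31 in progression and 7.86, 7.94, 7.68, 7.77 and 7.72 in wild-type spleen. Its early and terminal arrays overlapped, and all lay above the wild type.

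The other complexes and cytochrome c held 15 of the 29 members that passed, both lower ones among them. In complex II Sdhd, a membrane anchor, was higher by 0.52 ± 0.12 and Sdhb, the iron-sulphur subunit, by 0.30 ± 0.10, while the catalytic subunit Sdha differed by -0.10 ± 0.11 (limma, adjusted p = 0.0049, 0.032 and 0.51). In complex III 3 of 9 genes were higher, with Uqcrc1, a core protein, higher by 0.61 ± 0.10, Uqcrq by 0.56 ± 0.12 and Uqcr11 by 0.42 ± 0.10. Uqcrh, the hinge protein that helps cytochrome c bind complex III, was lower, with a difference of -0.42 ± 0.10 (limma, adjusted p = 0.0049). Its levels were 11.89, 12.13 and 12.10 in terminal spleen and 12.47, 12.42, 12.38, 12.55 and 12.49 in wild-type spleen, without overlap. Cyc1 (0.25 ± 0.14), the cytochrome of complex III, and Cycs (0.03 ± 0.18), which carries electrons to complex IV, did not pass.

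In complex IV 3 of 16 genes were higher: Cox5a by 0.45 ± 0.09, Cox5b by 0.33 ± 0.10, and Cox7a1. The group means of Cox7a1 were all less than 1 unit from the arrays' lower quartile, so its probe set was not shown to be above background and no size is given for its difference. Cox4i1, Cox6a1, Cox6b1, Cox7a2 and Cox8a, the isoforms found in most tissues, did not pass in any spleen stage. In ATP synthase 5 of 17 genes were higher: Atp5g1, which encodes the rotating c subunit, by 0.60 ± 0.11, Atp5j by 0.57 ± 0.11, Atp5k by 0.37 ± 0.11, Atp5g3 by 0.35 ± 0.09 and Atp5a1 by 0.28 ± 0.10. The catalytic subunit Atp5b differed by -0.01 ± 0.11 (limma, adjusted p = 0.95).

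Cox7a2l, a factor that joins complexes III and IV into supercomplexes, was the 1 member lower in all 3 spleen stages. It stood at 11.44, 11.34 and 11.47 in early, 11.25, 11.36 and 11.51 in progression, 11.46, 11.37 and 11.35 in terminal and 11.74, 11.83, 11.61, 11.83 and 11.72 in wild-type spleen. All 9 MLL-ENL-ERtm arrays lay below all 5 wild types. The differences were -0.33 ± 0.09, -0.38 ± 0.09 and -0.35 ± 0.09 (limma, adjusted p = 0.030, 0.013 and 0.0099). Of its 3 probe sets the brightest gave -0.35 and another -0.34 in terminal spleen, but the third gave 0.11.

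Other members too had probe sets that went different ways. Of the 11 members called in terminal spleen that have several probe sets, 8 had at least 1 of opposite sign to the brightest, which was used. Of the 10 probe sets of opposite sign, 6 had mean levels of 3.67 to 7.92. The other 4 were above a level of 10: those of Cox5a gave -0.02 and -0.05 against 0.45, that of Ndufb6 gave -0.04 against 0.54, and that of Cox7a2l is given above. The other probe set of Ndufb7 gave 0.67 against 0.76, while Ndufb3, Ndufb1, Ndufa8 and Uqcrc1 have a single probe set each.

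In early spleen 4 members were higher (7.35% of all genes were) and 1 was lower (8.55%), so the members called were no larger a share than in the background. Those higher were Ndufb7 by 0.41 ± 0.10, Ndufb3 by 0.39 ± 0.10, Ndufv3 by 0.46 ± 0.13 and Uqcrc1 by 0.41 ± 0.10 (limma, adjusted p = 0.0097, 0.014, 0.025 and 0.012). Uqcrc1 stood at 11.94, 11.81 and 11.83 in early, 11.67, 11.65 and 11.66 in progression, 12.12, 12.04 and 12.04 in terminal and 11.70, 11.46, 11.31, 11.39 and 11.38 in wild-type spleen. Its early and terminal arrays lay above all wild types, whereas the progression arrays lay below wild-type spleen 1 and above the other wild types. With early spleen 1 left out 2 members passed (Ndufb3 and Ndufv3), and with wild-type spleen 5 left out 3 did (Ndufb3, Ndufb7 and Uqcrc1). With wild-type spleen 3 and early spleen 1, the arrays of most pancreas signal, both left out, none of these 5 passed and only Cox7c, a complex IV subunit, did (-0.76). With wild-type spleen 5 left out as well 0 members passed, and Ndufb7 was then at 0.33 (limma, adjusted p = 0.24) and Cox7a2l at -0.39 (0.14).

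**Figure D3:**
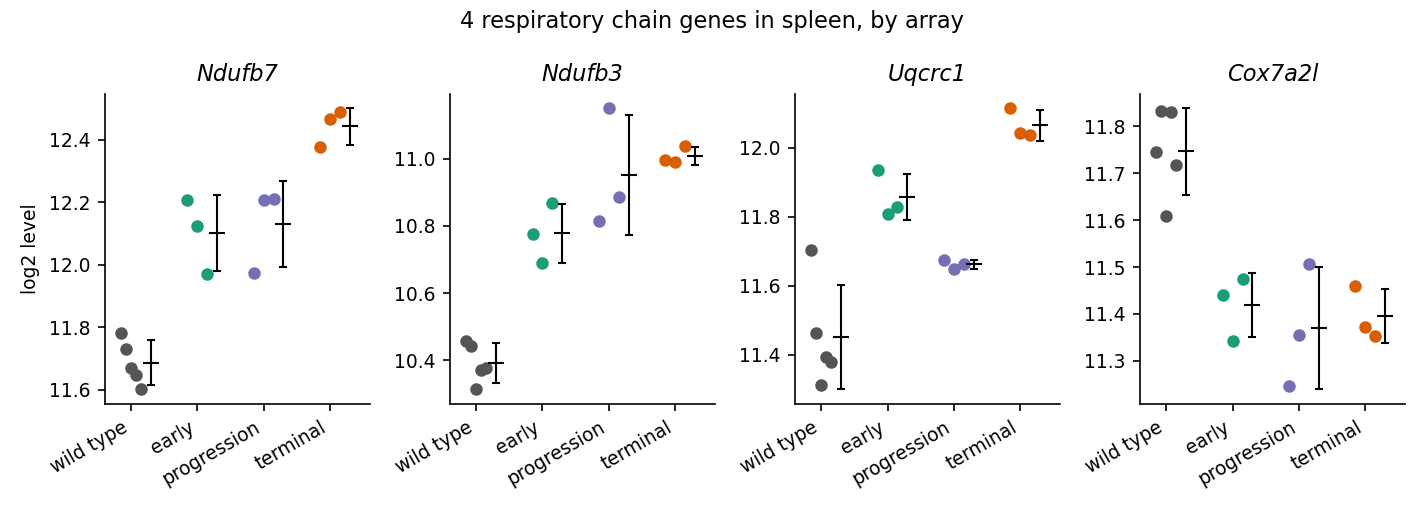
Points are spleen arrays on the log2 scale, and bars give mean ± SD beside them (3 arrays per stage, 5 wild type). Ndufb7, Ndufb3 and Cox7a2l show no overlap between wild type and any stage, while Uqcrc1 in progression (11.65 to 11.67) lies below the highest wild type (11.70).

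In progression spleen 9 members were higher (10.5%, against 9.29% of all genes) and 1 lower (1.16%, against 9.96%). The share of members called higher was thus near that of all genes, and the share called lower was below it. Ndufaf7 was higher by 0.62 ± 0.14, Ndufb1 by 0.59 ± 0.15, Ndufb3 by 0.56 ± 0.10 and Ndufb7 by 0.44 ± 0.10 (limma, adjusted p = 0.0060, 0.012, 0.0011 and 0.0054). The others were Atp5g1 (0.40 ± 0.11), Uqcrq (0.37 ± 0.12), Ndufa9 (0.36 ± 0.11), which links the arms of complex I, Ndufa8 (0.36 ± 0.10) and Atp5k (0.33 ± 0.11), and Cox7a2l was the lower one. The median difference was 0.13 against 0.04 for all genes, and 73 members lay above the wild-type mean (54.8% of all genes). All 9 were also higher in terminal spleen, a comparison against the same 5 wild-type arrays. How often this held over all genes was not counted. The count, given without the share of all genes, was 4 without progression spleen 1, 5 without progression spleen 2 and 19 without progression spleen 3. It was 6 without wild-type spleen 2 and 5 without wild-type spleen 3 or 5. Without wild-type spleen 3 and early spleen 1 there were 5 members that passed (Cox7a2l, Ndufaf7, Ndufb1, Ndufb3 and Ndufb7), and without all 3 arrays of pancreas signal Cox7a2l, Ndufaf7 and Ndufb3 did.

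Across the 3 stages 2 members were higher each time (Ndufb3 and Ndufb7). The share of all genes called higher in all 3 stages was not taken, so this count is not set against a background. Means lay above wild type throughout in 52 members (36.6% of all genes). The stages share their wild-type arrays, so these counts are not independent of each other. In 28 members the means rose from wild type over early and progression to terminal spleen (10.5% of all genes), and 49 were highest in terminal spleen (34.0%). Between stages few differences passed. Progression against early gave 0 members called by limma (0.0% of all genes), with 2 at an unadjusted p under 0.05 (7.34% of all genes) and 1 under array weights (Ndufaf7). The smallest p-values were those of Cox7c (0.63 ± 0.22), Ndufaf7 (0.40 ± 0.15) and Cox8a (0.24 ± 0.11), with limma's adjusted p = 0.65, 0.65 and 0.68.

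Terminal spleen exceeded progression spleen in 1 member (2.56% of all genes were higher), Uqcrc1, by 0.40 ± 0.11 (limma, adjusted p = 0.047). That call was lost with any 1 terminal array, progression spleen 1 or progression spleen 2 left out, and 4 members passed without progression spleen 3. Xist was high in all 3 terminal and in 0 of 3 progression spleens, so sex and stage cannot be told apart in this comparison. Terminal spleen exceeded early spleen in 3 members (2.73% of all genes): Ndufaf7 by 0.61 ± 0.15, Atp5j, the F6 coupling factor of ATP synthase, by 0.52 ± 0.12, and Ndufa8 by 0.41 ± 0.12 (limma, adjusted p = 0.032, 0.023 and 0.049). No member passed without early spleen 1, early spleen 2 or terminal spleen 2, or without the 3 arrays of pancreas signal, and 9 members passed without early spleen 3. With terminal spleen 1 left out Atp5j and Uqcrq passed, and without terminal spleen 3 only Cox6b2 did, as lower (-1.66). Cox6b2, an isoform known from testis, stood at 7.16 in terminal spleen 1 and at 9.26 and 9.54 in the other two, against 9.11 to 9.59 in wild-type spleen.

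Months of tamoxifen differ between terminal spleen and most of its controls. Of the wild-type spleens only number 1 (24 months) was of a like duration, and the others had 8 to 11 months. Over all 86 members the median distance of the terminal mean was 0.19 from it and 0.20 from the mean of the other wild types. It was the highest wild type in 27 of the 86 members (36.1% of all genes) and the lowest in 29. Among the 27 members higher in terminal spleen it was the highest wild type in 13. For those 27 the median distance was 0.40 from it and 0.47 from the mean of the others. The 27 were selected by their distance from these same wild types, so neither these distances nor the count of 13 tests duration. In 54 members every terminal array lay above that wild-type spleen, as in 33.9% of all genes. Without it 25 members were higher and 2 lower. Duration and stage cannot be told apart beyond this single array. Sex, with Xist high in all 3 terminal spleens, was partly confounded with stage in the comparison with wild type. Between terminal and progression spleen, where Xist was high in 0 of 3, sex and stage cannot be told apart.

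Markers of cell types moved with the stages in the same spleens. Of all genes 18.1% were higher and 16.3% lower in terminal spleen, and 7.35% and 9.29% were higher in early and progression spleen. Beside the terminal calls 9 of 11 B cell markers and 9 of 10 erythroid markers were lower, and the mean of the B cell list, set against wild type, ran from -3.54 to -2.10 over the arrays. The erythroid mean ran from -1.75 to -1.12 in terminal spleen and from -0.26 to 0.35 in early and progression spleen. The 5 promyelocyte markers were higher in all 3 stages, by a mean of 2.97 to 4.41 over the arrays, and 9 of 9 neutrophil markers were higher in terminal spleen. Macrophage (7 of 8) and T cell (6 of 6) markers were lower there, and of 14 cell division genes 5 were higher and 3 lower. No adipocyte marker was higher, and of 16 muscle markers 1 was higher and 2 lower. The part of these shifts in the members' differences was not tested.

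Other mitochondrial genes, from lists chosen with earlier results of these data known, are given for context. Of all genes 18.1% were higher and 16.3% lower in terminal spleen. These shares were 7.35% and 8.55% in early and 9.29% and 9.96% in progression spleen. Of 74 mitochondrial ribosome genes 42 were higher and 0 lower in terminal spleen, with a median of 0.34 (early 2 higher and 2 lower, progression 4 and 1). Of 17 citric acid cycle genes 5 were higher and 1 lower, with Mdh2 (malate dehydrogenase) higher by 0.85 ± 0.11. Of 14 complex IV assembly genes 5 were higher and 1 lower, led by Cox19 (0.75 ± 0.12), a copper chaperone. Of 14 regulators of mitochondrial biogenesis 0 were higher and 3 lower. These were Ppargc1b, a coactivator (-0.95 ± 0.21), Tfb1m (-0.54 ± 0.15) and Tfam (-0.43 ± 0.14), which packages mitochondrial DNA and takes part in its transcription. Tfam was lower in early (-0.67 ± 0.14) and progression spleen (-0.74 ± 0.14) too. Sdhaf1 and Sdhaf4, assembly factors of complex II, were lower in terminal spleen (-0.85 ± 0.12 and -0.86 ± 0.11), and so was Atpif1, the inhibitor of ATP synthase (-0.95 ± 0.17). Of 19 glycolysis genes 12 were higher and 2 lower, with hexokinase Hk2 higher by 2.25 ± 0.16, a larger difference than that of any respiratory chain member. Among mitochondrial antioxidants Txnrd2 (-1.37 ± 0.17), Prdx3 (-0.61 ± 0.16) and Gpx1 (-0.40 ± 0.09) were lower in terminal spleen and Gsr (2.23 ± 0.19) higher. The carriers Vdac2 (0.69 ± 0.10) and Vdac1 (0.32 ± 0.11) were higher. ND5, the 1 gene of mitochondrial DNA measured, was lower with the spleen stages pooled (-0.47 ± 0.17; limma, adjusted p = 0.046), as were 16.4% of all genes.

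In bone marrow limma called 0 of the 86 members in any of the 7 comparisons. The background was low as well, with 0.282% of all genes called in proliferation, 0.42% in transition, 0.0484% in senescence, 0.662% with the 3 states pooled and 0.0% between states. At an unadjusted p under 0.05 there were 1, 2, 0 and 1 members against wild type, where all genes gave 9.9%, 10.5%, 6.36% and 12.5%. Between states there were 0. All genes gave 2.15% for transition against proliferation, 3.07% for senescence against transition and 1.01% for senescence against proliferation. The median differences from wild type were -0.02, 0.05 and -0.01, and the median 95% confidence interval reached 0.39 (senescence 0.42) to either side. The intervals of 84, 85 and 84 members lay within 1 unit of 0. A difference of the terminal spleen median, 0.20, could lie inside an interval of the median width around 0. The largest terminal rise, 0.92, would lie outside it. Members' own marrow intervals were not set against their terminal differences here. From proliferation to transition 67 members had a difference above 0 (53.9% of all genes) and from transition to senescence 22 (43.7%), with medians of 0.07 and -0.07.

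The marrow members with the smallest p-values were Ndufaf7 and the muscle isoform Cox6a2. Ndufaf7 stood at 9.63, 9.98, 9.93 and 10.05 in proliferation, 9.38, 10.18, 10.14 and 10.10 in transition, 9.70, 9.33 and 9.98 in senescence and 9.49, 9.25, 9.51 and 9.71 in wild-type marrow. The groups overlapped, and the difference in transition was 0.46 ± 0.19 (limma, adjusted p = 0.42). Without transition marrow 1 it was 0.65 with adjusted p = 0.033. Array weights give arrays that fit the group means less well less influence. They called Ndufaf7 higher in proliferation (0.41), transition (0.59) and the pooled states (0.36). The same weights called 879 of all 12394 genes higher in proliferation, 1329 in transition and 1241 with the states pooled. Without weights these counts were 14, 23 and 34.

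Cox6a2 stood at 8.99, 8.86, 9.35 and 9.01 in wild-type marrow, 10.17, 7.60, 8.12 and 8.10 in proliferation, 8.80, 7.84, 7.77 and 7.97 in transition and 8.60, 8.64 and 7.99 in senescence. Apart from proliferation marrow 1, the array with muscle signal, every MLL-ENL-ERtm array lay below every wild type. In transition and in senescence it was the 1 member whose arrays all lay below all wild types, as 1.9% and 2.07% of all genes did. The difference in transition was -0.96 ± 0.42 and with the states pooled -0.72 ± 0.35 (limma, adjusted p = 0.45 and 0.42). Without proliferation marrow 1 the pooled difference was -0.91 ± 0.19 (limma, adjusted p = 0.055). Array weights called Cox6a2 lower in proliferation (-1.08), transition (-1.28) and the pooled states (-1.02). Those weights called 342, 650 and 635 of all 12394 genes lower in these comparisons, against 21, 29 and 48 without them.

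**Figure D4:**
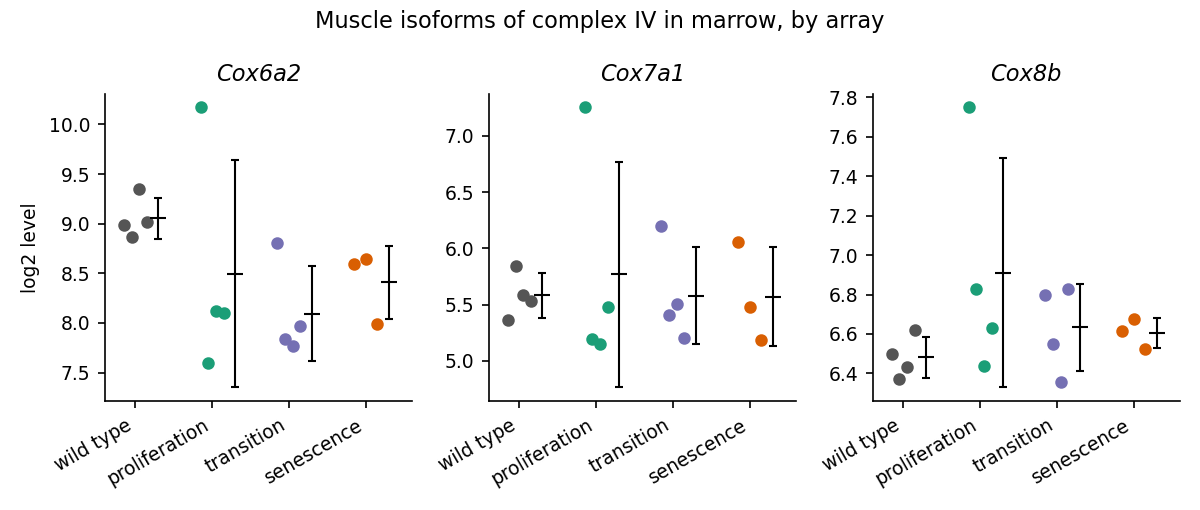
Points are marrow arrays on the log2 scale, and bars give mean ± SD beside them (4 arrays per group, 3 in senescence). Proliferation marrow 1 is the highest array for all 3 isoforms (10.17, 7.25 and 7.75), and without it Cox6a2 lies lower in every MLL-ENL-ERtm array than in every wild type.

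The other muscle isoforms followed that array without the same pattern. Cox7a1 stood at 7.25 in proliferation marrow 1 and 5.15 to 5.48 in the other proliferation arrays, against 5.37 to 5.85 in wild type. Cox8b stood at 7.75 in it and at 6.44 to 6.83 in the others, against 6.37 to 6.62 in wild type. Without that array the difference between proliferation and wild type fell from 0.43 to 0.15 for Cox8b and from 0.19 to -0.31 for Cox7a1. Their group means, like those of Cox4i2, were less than 1 unit from the arrays' lower quartile in both tissues. B cell markers were lower in marrow too, with 7 of 11 called when the states were pooled (0.662% of all genes). Their list means, set against wild type, lay between -2.10 and -1.05. Their part in the Cox6a2 levels was not tested.

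The remaining marrow members with the smallest p-values did not pass either. They were Atp5e in transition (0.33 ± 0.18), Ndufa5 (-0.37 ± 0.20) and Atp5md (-0.26 ± 0.16) in senescence, and Cox6b2 in senescence (-0.46 ± 0.30) and with the states pooled (-0.40 ± 0.23; adjusted p between 0.52 and 0.87 by limma). In proliferation Cox8b and Cox8a (-0.22 ± 0.14) followed Ndufaf7. From proliferation to transition they were Atp5e (0.35 ± 0.18), Ndufaf5, an assembly factor of complex I (0.37 ± 0.19), and Ndufab1 (0.31 ± 0.19). From transition to senescence they were Ndufaf5 (-0.37 ± 0.21), Atp5e (-0.33 ± 0.19) and Ndufaf7 (-0.28 ± 0.20), and from proliferation to senescence Cox8a (0.30 ± 0.15), Atp5d (0.35 ± 0.18) and Cox8b (-0.31 ± 0.24). All of these had adjusted p = 1.0 between states, and no gene of the array passed there.

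Whether the pooled MLL-ENL-ERtm effect differed between the tissues was tested as the marrow effect minus the spleen effect over all 29 arrays. In pooled spleen 24 members were higher (16.0% of all genes) and 2 lower (16.4%), and 7 and 1 without the 3 arrays of pancreas signal. The largest were Ndufb1 (0.64 ± 0.11), Ndufaf7 (0.56 ± 0.11), Ndufb7 (0.54 ± 0.07), Ndufv3 (0.53 ± 0.10), Ndufb3 (0.52 ± 0.07) and Ndufa8 (0.45 ± 0.08), and the lower ones Cox7a2l (-0.35 ± 0.07) and Uqcrh (-0.25 ± 0.08). The difference passed for 4 members, 1 higher (8.54% of all genes) and 3 lower (5.42%). It was -0.59 ± 0.17 for Ndufv3, -0.41 ± 0.13 for Ndufb7, -0.57 ± 0.19 for Ndufb1 and 0.50 ± 0.15 for Cox7a2l (limma, adjusted p = 0.017, 0.032, 0.048 and 0.028). In marrow the level of Ndufb7 was 13.39 ± 0.12 (SD, n = 4) in proliferation, 13.46 ± 0.17 (SD, n = 4) in transition, 13.54 ± 0.05 (SD, n = 3) in senescence and 13.33 ± 0.25 (SD, n = 4) in wild type, and the range of the wild-type arrays overlapped that of each state. For the other 82 members a difference between tissues was not shown, which does not make their effects alike. Ndufb1 lost its call in 19 of the 29 fits that each left out 1 array, Ndufb7 in 6, Cox7a2l in 4 and Ndufv3 in 1. Without the 3 arrays of pancreas signal 0 members passed, with Ndufv3 at -0.56 and Cox7a2l at 0.56 (limma, adjusted p = 0.087 and 0.059). The count ran from 1 to 7 with single arrays left out: it was 7 without transition marrow 3, 1 without wild-type spleen 4 (Ndufv3) and 2 without wild-type marrow 2, 3 or 4 or wild-type spleen 2, 3 or 5.

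**Figure D5:**
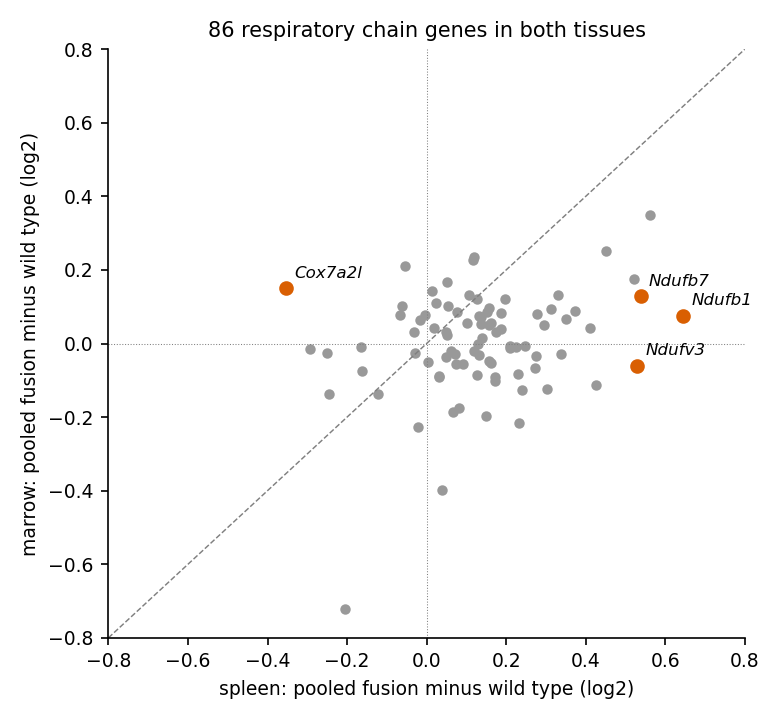
Each point is 1 of the 86 genes, with the pooled spleen difference from wild type on 1 axis and the pooled marrow difference on the other (log2), and the dashed line marks equal values. Orange points are the 4 genes whose difference between tissues passed; 70 of 86 genes lie above 0 in spleen (56.2% of all genes) and 44 in marrow (53.6%).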

How the data were processed

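The members and gene lists were chosen with earlier results of these data known. The authors deposited log2 probe set values of 29 arrays (15 marrow, 14 spleen), made with RMA, affy and limma per the submitters' processing notes; versions and filters are not given in the sources used here. Probe sets were named through the platform table, 20393 with 1 symbol, and 8 that would match the rule but list several symbols were left out. A gene was its brightest probe set in the tissue, and dim probe sets were kept. Each tissue was fitted apart with 4 groups in limma 3.58.1 (R 4.3.3, eBayes), with Benjamini-Hochberg adjustment over 12394 genes. The fit was tested on simulated data. Replicates are called biological per the labels; whether marrow and spleen came from the same mice is not given, and the contrast between tissues treats arrays as independent. Arrays have no read depth, and precision depends on their number and spread: the median standard error was 0.18 to 0.20 in marrow comparisons of single states and 0.11 to 0.12 in spleen ones.

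Members named were all that passed where 10 or fewer did, otherwise the 6 largest rises and 6 largest falls, and the 3 smallest p-values where none passed; common subunits were named throughout, up to 4 genes of each other list, and further members called in terminal spleen were named after their values were seen. Each comparison was also run after a second quantile normalization, after centring every array on its median, on genes above the median level only, with probe sets averaged per gene, on just the groups compared, with limma's trend and robust options, with array weights, with the replicate number as a block, with Xist or with the Gapdh 3'/5' difference as a covariate, and leaving out 1 array at a time. Leaving out the arrays with pancreas signal (wild-type spleen 3 and early spleen 1, then wild-type spleen 5 too) was added after the data were seen. Figures were drawn with matplotlib 3.10.9.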

Additional observations from a re-analysis of the deposited data

Results flagged for a closer look

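Of 148 groups of 4 or 5 arrays examined for the named members, 11 held an array far from the others, and chance alone marks about 1 in 20. In proliferation marrow these were Atp5e in array 3 (11.95, nearest other 11.76), Atp5g1 in array 2 (9.84 against 10.14), and Cox7a1 (7.25 against 5.48) and Sdha (12.66 against 13.16) in array 1, which carries muscle signal. In transition marrow 1 Cox7a2l stood at 13.43 (nearest 13.95) and Ndufaf7 at 9.38 (10.10), and in wild-type marrow 1 Atp5g1 stood at 9.61 (10.35). Wild-type spleen 1, of the mouse with 24 months of tamoxifen, stood apart for Atp5d (12.50 against 12.21), Cox8b (4.34 against 4.86), Cycs (11.41 against 12.01) and Ndufa8 (10.70 against 10.46).

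The pooled effect differed between tissues, by the test of the difference itself, for Ndufv3 (-0.59), Cox7a2l (0.50), Ndufb7 (-0.41) and Ndufb1 (-0.57), each given as marrow minus spleen on the log2 scale (limma, adjusted p = 0.017, 0.028, 0.032 and 0.048). Of 29 fits without 1 array each the call was lost in 1, 4, 6 and 19. No member passed with all arrays of pancreas signal left out. In each direction the share of members called was below the share of all genes, which is given with the test above.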

How the results depend on the processing

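Counts of members called are given here, without the share of all genes except where stated. That share moves with the setting too, so the counts do not compare members with all genes. Terminal against wild-type spleen, with 29, ran from 20 to 30 with single arrays left out and gave 23 without both arrays of most pancreas signal. With array weights the counts were 2 in proliferation, 4 in transition and 3 in pooled marrow. Of all 12394 genes the same weights called 879 higher and 342 lower in proliferation marrow. These numbers were 1329 and 650 in transition and 1241 and 635 in pooled marrow. The members called with array weights in spleen were 32 in early, 21 in progression and 42 pooled. There were 1 for progression against early, 2 for terminal against progression, 17 for terminal against early and 32 between tissues. The median correlation of deviations was 0.093 over 21 same-numbered marrow pairs and -0.024 over 63 other marrow pairs. In spleen it was 0.008 over 18 same-numbered pairs and -0.012 over 54 others. The labels do not say whether a shared number links arrays, so whether they pair was not settled. The replicate block gave 0 in early, 1 in progression, 13 in terminal and 8 in pooled spleen and 0 for terminal against progression or early. The Gapdh covariate gave 8 in early spleen, 2 for terminal against progression and 0 against early, and the Xist covariate 0 for both, with 20 in terminal against wild type. Centring gave 18 in progression, 0 for terminal against progression and 8 between tissues. A second quantile normalization gave 0 for terminal against progression, 1 against early and 13 between tissues. The compared groups alone gave 0 for terminal against progression and early, and genes above the median level 6 for terminal against early. Without both arrays of most pancreas signal there were 1 in early, 5 in progression, 13 in pooled spleen, 0 for terminal against early and 2 between tissues. Without all 3 arrays of pancreas signal there were 0 in early, 3 in progression, 18 in terminal and 8 in pooled spleen, and 0 for terminal against early and between tissues. With single arrays left out the ranges were 0 to 1 in transition marrow, 2 to 7 in early, 4 to 19 in progression and 17 to 31 in pooled spleen (17 without wild-type spleen 4 or 5), 0 to 1 for progression against early, 0 to 4 and 0 to 9 for terminal against progression and early, and 1 to 7 between tissues. Over named genes and all alternatives 180 values lost their call, 8 gained one, 0 reversed and 1438 stayed on their side of the threshold or within the spread, and 15 member medians moved past it. Of the counts of members 72 moved by over 1.5 times and 236 did not. The causes were not tested.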
